A study of Mus musculus with 7 samples.

Results

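The MAP kinase phosphatases are 10 genes of the dual-specificity phosphatase family, Dusp1, Dusp2, Dusp4, Dusp5, Dusp6, Dusp7, Dusp8, Dusp9, Dusp10 and Dusp16. They were taken by gene name from a table of 54309 genes, in which each of the 10 had 1 row. The family was chosen because Dusp8 differed strongly between the study's groups, so the members' differences in that comparison are given as a description, without a p-value for any of them. Transcripts were measured by RNA sequencing in lumbar dorsal root ganglia, which hold the cell bodies of sensory neurons, from male C57bl/6 mice of 6 to 8 weeks. The sciatic nerve of every mouse had been injured 72 h before the ganglia were taken, at Zeitgeber time (ZT, hours after lights on) 20 in 4 samples and at ZT 8 in 3 samples. Injury and dissection fell at the same clock time within a group, no uninjured ganglia were analysed here, and the labels do not say how many animals a sample holds. The ganglia had been dissociated with enzymes and enriched for neurons over an albumin gradient.

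MAP kinase phosphatases remove phosphate from both the threonine and the tyrosine that activate a MAP kinase, and so switch the kinase off. Dusp1, Dusp2, Dusp4 and Dusp5 encode nuclear enzymes that are rapidly induced by growth factors or stress. Dusp6, Dusp7 and Dusp9 encode cytoplasmic enzymes that prefer ERK, and Dusp8, Dusp10 and Dusp16 encode enzymes that prefer JNK and p38. In injured sensory neurons ERK and JNK carry signals from the axon to the nucleus, and JNK phosphorylates the transcription factor Jun.

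RefSeq promoter sequences of 300 bases around a gene's start on GRCm38.p6 were matched by symbol for 8 of the 10 members and not for Dusp4 and Dusp9. The stretches printed here lie before the start and are shown because they hold the full cAMP response element TGACGTCA, the palindrome bound by CREB family factors, or the E-box CACGTG, the palindrome bound by the clock factors CLOCK and BMAL1. Capitals mark these motifs, and each stretch reads 5′ to 3′ on the gene's own strand.
Dusp8 (chr7:142095304-142095427, minus strand): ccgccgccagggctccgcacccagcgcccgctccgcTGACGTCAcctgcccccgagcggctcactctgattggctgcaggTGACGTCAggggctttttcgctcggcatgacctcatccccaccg
Dusp1 (chr17:26508557-26508651, minus strand): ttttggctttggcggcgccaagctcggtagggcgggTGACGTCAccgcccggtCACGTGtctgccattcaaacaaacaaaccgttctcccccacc
Dusp2 (chr2:127336014-127336091, plus strand): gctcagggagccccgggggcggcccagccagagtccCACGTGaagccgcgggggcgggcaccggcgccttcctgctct
The Dusp8 promoter held 2 copies of TGACGTCA, the first from base −107 to −100 and the second from base −63 to −56 relative to the start. The Dusp1 promoter held 1 copy, from −143 to −136, followed by a CACGTG from −126 to −121. The Dusp2 promoter held a CACGTG from −109 to −104. Each motif reads the same on both strands, so one search covers both. Of 32851 promoters of that length, 1.79% held TGACGTCA and 7.15% held CACGTG. The shorter TGACG, which is part of TGACGTCA, was found on either strand in 20.8% of all promoters and in 5 of the 8 member promoters (Dusp1, Dusp2, Dusp5, Dusp8 and Dusp16). The clock element TTATGTAA, found in 0.938% of all promoters, was in 0 of the 8. These matches describe letters in a window, and binding was not measured.

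Levels are TPM, each library's reads scaled by transcript length to a fixed total, so that levels of different genes can be compared. Means are given ± SD over the 4 samples of ZT20 and the 3 of ZT8. The number of reads behind each value is unknown. Library names follow one scheme at ZT20 and another at ZT8, and a batch behind those schemes cannot be told apart from the group. The Y-linked gene Ddx3y had no signal (0 TPM) in ZT20 replicates 3 and 4, whereas the other 5 samples had 11.7 to 24.2 TPM, although all are labelled male. Xist, expressed from the inactive X of females, was at 2.21 and 2.30 TPM in those 2 samples, at 1.08 TPM in ZT20 replicate 2, which had the lowest Ddx3y of the other 5, and at no more than 0.00467 TPM elsewhere. ZT8 replicate 2 had the lowest number of genes above 0 TPM, 18297 against 22541 to 25238 in the others. Summed neuron markers (15 of 15 detected, the 15 tested) ranged from 20373 to 25158 TPM at ZT20 and from 15570 to 22914 TPM at ZT8. Summed satellite glia markers (10 of 10 detected) ranged from 7544 to 9216 TPM at ZT20 and from 12809 to 15522 TPM at ZT8, and did not overlap. In these bulk samples fewer cells of a type and less RNA per cell cannot be told apart.

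Dusp8 (ENSMUSG00000037887) had the largest difference between the groups among the 8 members with a mean level of 1 TPM or more. Its level was 33.7, 31.9, 28.0 and 26.3 TPM in the ZT20 samples, replicates 1 to 4 in turn. The ZT8 samples had 5.69, 5.89 and 6.45 TPM. All ZT20 samples were high, all ZT8 samples were low, and within each group the values lay close together. Dusp8 averaged 29.98 ± 3.40 TPM (SD, n = 4) in ZT20 samples against 6.01 ± 0.394 TPM (SD, n = 3) in ZT8 samples, a 4.99-fold ratio. On the log2(TPM + 1) scale, which understates changes of low genes, the difference of ZT20 minus ZT8 was 2.14 with a standard error of 0.16. Of the 14800 genes that reached that mean and were tested, 58 had a larger positive and 113 a larger absolute difference, and after the length and GC correction described next 112 had a positive difference of at least its size. The difference was 1.93 after median-ratio scaling between samples and 1.5997 after each sample's trend with transcript length and GC content was removed. Over the 7 fits that each left out 1 sample it ran from 2.08 to 2.20, and without ZT20 replicates 3 and 4 it was 2.27. Among the other genes that moved with the groups were satellite glia markers, of which 3 of 10 passed the test, all lower at ZT20, among them Apoe. Of 15 neuron markers 4 passed, all higher at ZT20 (Nefh, Elavl4, Map2 and Syt1), and of 9 nociceptor markers 4 passed, all higher (Scn10a, Scn11a, Trpv1 and P2rx3). The called share was 26.7% of the neuron and 44.4% of the nociceptor list, where 12.8% of all tested genes were called higher and 3.61% lower. The summed nociceptor markers overlapped, at 4850.0 to 6832 TPM at ZT20 and 4773 to 5735 TPM at ZT8. With a score of neuron minus glial markers as covariate the Dusp8 difference was 1.82 with a standard error of 0.34, and 0 genes were called. That score was 4.05 to 4.46 at ZT20 and 3.49 to 3.85 at ZT8, so this fit cannot separate it from the group. The part of cell make-up in the Dusp8 difference was not tested further. Dusp8 overlaps another annotated gene on the opposite strand, and whether reads were assigned by strand is not given in the sources used here.

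**Figure D1:**
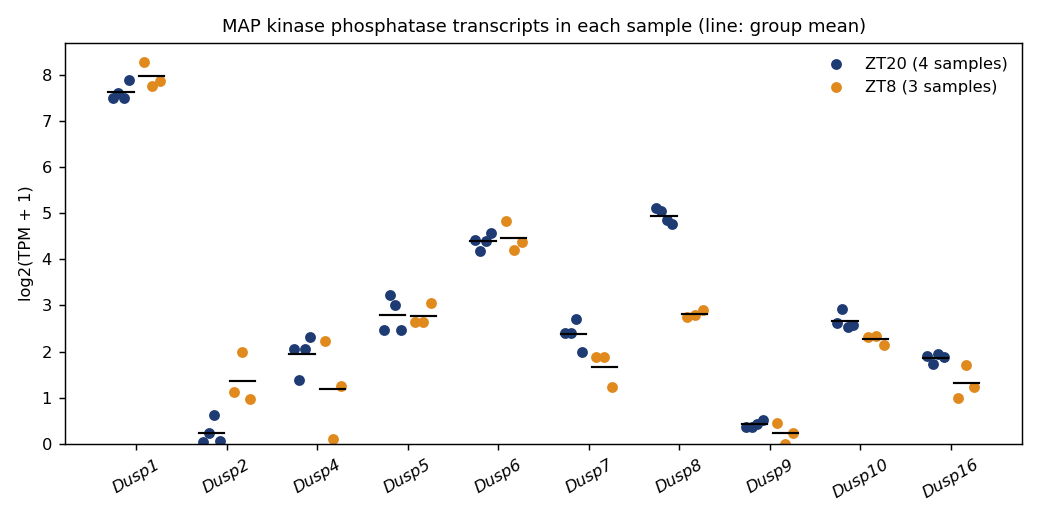
Level of each MAP kinase phosphatase in every sample, on the log2(TPM + 1) scale, with 1 point per sample (4 at ZT20 in blue, 3 at ZT8 in orange) and a line at the group mean. Dusp8 shows the widest separation, between 26.3 and 33.7 TPM at ZT20 and between 5.69 and 6.45 TPM at ZT8, while Dusp5 and Dusp6 overlap.

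The other phosphatases that prefer JNK and p38 were lower in level and differed less. Dusp10 (ENSMUSG00000039384) stood at 5.16, 6.55, 4.83 and 5.00 TPM in ZT20 replicates 1 to 4 and at 3.996, 4.08 and 3.45 TPM in ZT8 replicates 1 to 3. Every ZT20 value of Dusp10 lay above every ZT8 value, with a log2 difference of 0.39 (SE 0.20). Dusp16 (ENSMUSG00000030203) was at 2.74, 2.30, 2.84 and 2.68 TPM at ZT20 and at 1.00, 2.27 and 1.36 TPM at ZT8. The groups of Dusp16 were separated only by the gap between ZT20 replicate 2 and ZT8 replicate 2, and the log2 difference was 0.54 (SE 0.25). Without ZT8 replicate 2 that difference was 0.74. The length and GC correction left 0.25 for Dusp10 and 0.060 for Dusp16, median-ratio scaling 0.20 and 0.39, and quantile normalization 0.063 and 0.31. Dusp8, Dusp10 and Dusp16 together came to 41.6, 40.7, 35.7 and 34.0 TPM in ZT20 replicates 1 to 4, against 10.7 to 12.2 TPM in the ZT8 samples, and the sums did not overlap. Dusp8 made up 77.4% to 81.0% of that sum at ZT20 and 48.1% to 57.3% at ZT8.

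The nuclear, inducible phosphatases did not share one direction. Dusp1 (ENSMUSG00000024190), an immediate early gene that is also induced by glucocorticoids, was the most abundant member in both groups. It stood at 179, 192, 179 and 235 TPM in ZT20 replicates 1 to 4 and at 309, 214 and 233 TPM in ZT8 replicates 1 to 3. ZT20 replicate 4 lay within the range of ZT8, so the groups overlapped. The log2 difference of Dusp1 was −0.35 (SE 0.16), and it was negative in each of the 18 alternative fits, from −0.58 to −0.076. Dusp1 lay under the adjusted threshold in 1 of them, median-ratio scaling, where 15.5% of all tested genes did. In GENCODE M21 Dusp1 overlaps annotated genes on both strands, so the assignment of its reads is uncertain.

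Dusp2 (ENSMUSG00000027368), known chiefly from lymphocytes and myeloid cells, had the opposite order to Dusp8 at a very low level. It stood at 0.0289, 0.187, 0.545 and 0.0453 TPM in ZT20 replicates 1 to 4 and at 1.19, 2.95 and 0.978 TPM in ZT8 replicates 1 to 3. All ZT8 values lay above all ZT20 values, but the mean over all samples was under 1 TPM and Dusp2 was not tested in the main fit. Summed T cell markers (9 of 9 detected) were at 14.1, 35.8, 56.7 and 11.5 TPM at ZT20 and at 89.3, 36.5 and 25.4 TPM at ZT8, with Cd3e and Cd8a listed at 0 in ZT8 replicate 2. Summed macrophage markers (12 of 12 detected) ranged from 370.0 to 741 TPM at ZT20 and from 388 to 906 TPM at ZT8, with Itgam listed at 0 in ZT8 replicate 2. Of these 12 markers 3 passed by limma, C1qa being lower (−1.17, adjusted p = 0.0253) and Itgam and Mrc1 higher at ZT20 (1.44 and 1.40, adjusted p = 0.0461 and 0.0259). Both of these sums overlapped between the groups. Summed B and plasma cell markers (8 of 8 detected) did not, at 270.2 to 492 TPM at ZT20 and 503 to 945 TPM at ZT8, the direction of Dusp2. Within that list Jchain and Mzb1, both plasma cell genes, had ZT20 ranges below those of ZT8, and the other 6 overlapped. The part of immune cells in the Dusp2 values was not tested.

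Dusp4 and Dusp5, the other nuclear members, overlapped between the groups. Dusp4 (ENSMUSG00000031530), which acts on ERK, JNK and p38, ranged from 1.61 to 3.98 TPM at ZT20 and from 0.0736 to 3.70 TPM at ZT8. Its lowest value was in ZT8 replicate 2, and leaving that sample out lowered the log2 difference from 0.75 (SE 0.48) to 0.21. Leaving out ZT8 replicate 1, the highest of its group, raised it to 1.27. Dusp5 (ENSMUSG00000034765), which is selective for ERK, ranged from 4.50 to 8.37 TPM at ZT20 and from 5.25 to 7.26 TPM at ZT8. The log2 difference of Dusp5 was 0.015, with a 95% interval from −0.58 to 0.61, and it was positive in 8 of 18 alternative fits.

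The cytoplasmic ERK phosphatases were led by Dusp6 (ENSMUSG00000019960), a feedback inhibitor that ERK signalling itself induces. Dusp6 had 20.5, 17.1, 19.98 and 22.8 TPM in ZT20 replicates 1 to 4 and 27.3, 17.3 and 19.7 TPM in ZT8 replicates 1 to 3. The ZT8 range enclosed all but the lowest ZT20 value. The log2 difference was −0.072, with a 95% interval from −0.51 to 0.36. Dusp7 (ENSMUSG00000053716) was at 4.27, 4.32, 5.55 and 2.97 TPM at ZT20 and at 2.70, 2.67 and 1.37 TPM at ZT8. Its groups did not overlap, and the log2 difference was 0.71 (SE 0.27) and remained positive in all 17 alternative fits that held the gene, from 0.42 to 0.93. Dusp9 (ENSMUSG00000031383), an X-linked gene best known from placenta, was at 0.297 to 0.436 TPM at ZT20. It was at 0.369 and 0.187 TPM in ZT8 replicates 1 and 3 and listed at 0 in ZT8 replicate 2, and it was not tested.

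Counted over the family, 8 of the 10 members passed the filter on mean level, and Dusp2 and Dusp9 did not. By limma with Benjamini-Hochberg adjustment over all 14800 genes, 1 of the 8 lay under an adjusted p-value of 0.05, namely Dusp8, for whose difference the family was chosen, so that this is no test of it. Of all tested genes 16.4% did, 12.8% being higher and 3.61% lower at ZT20. Group ranges were apart in 4 of the 8 (Dusp7, Dusp8, Dusp10 and Dusp16, all higher at ZT20), and 33.2% of all tested genes had such ranges, 24.5% with ZT20 above and 8.72% with ZT20 below. The median log2 difference of the 8 was 0.47, and that of all tested genes was 0.23. The family was picked from this contrast, so these counts describe its members and nothing is read from them. Of all tested genes, 1899 were called higher and 534 lower at ZT20 (78.1% higher). Median-ratio scaling, which moved the median of all genes to 0.034, gave 1128 higher and 1160 lower (49.3% higher, with 15.5% of genes called), quantile normalization gave 1023 and 814 (55.7% higher), and the length and GC correction gave 543 and 735 (42.5% higher, with 8.67% of genes called and, of the members, Dusp8). Without ZT20 replicates 3 and 4 limma called 0 genes, and 2425 had an unadjusted p-value under 0.05.

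**Figure D2:**
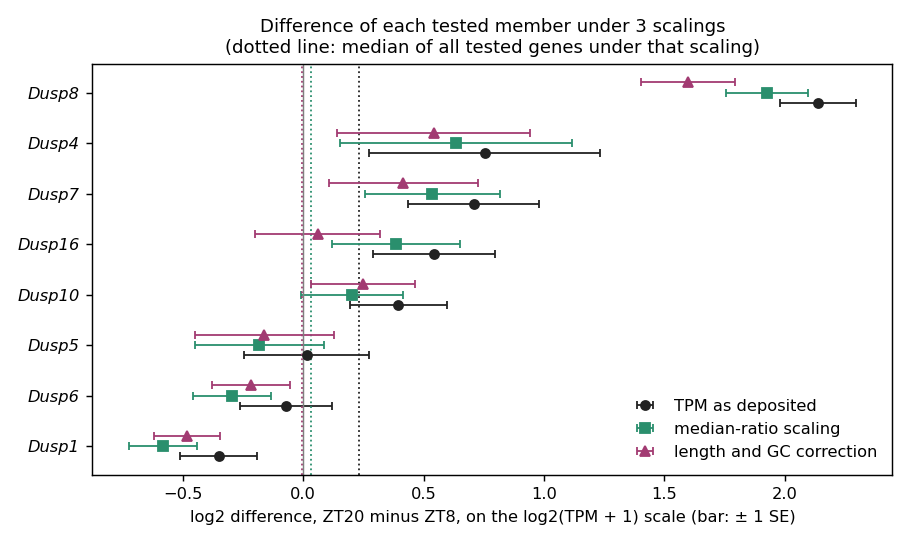
Log2 difference of ZT20 minus ZT8 for each of the 8 tested members, with bars of 1 standard error, under 3 scalings (TPM as deposited, median-ratio, length and GC). Dotted lines mark the median of all tested genes under the same scaling. Dusp8 lies at 2.14, 1.93 and 1.5997, and the sign of Dusp5 changes from 0.015 to negative under both other scalings.

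The order of levels within the family differed between the groups in the places of Dusp8 and Dusp2. At ZT20 the order by mean was Dusp1, Dusp8, Dusp6, Dusp5, Dusp10, Dusp7, Dusp4, Dusp16, Dusp9 and Dusp2. The ranges of neighbours were apart between Dusp1 and Dusp8, between Dusp8 and Dusp6, between Dusp6 and Dusp5 and between Dusp16 and Dusp9, and all other neighbours overlapped. At ZT8 Dusp6 ranked above Dusp8, the order being Dusp1, Dusp6, Dusp8, Dusp5, Dusp10, Dusp7, Dusp4, Dusp2, Dusp16 and Dusp9. Dusp2, the lowest at ZT20, ranked above Dusp16 and Dusp9 at ZT8, apart from Dusp9 but overlapping with Dusp16. At ZT8 Dusp8 overlapped with Dusp5, and the run from Dusp7 to Dusp16 overlapped between neighbours. The ratio of Dusp8 to Dusp6 within a sample was 1.15 to 1.87 at ZT20 and 0.209 to 0.340 at ZT8. Being taken within a sample, it does not depend on a scaling factor between samples, but a trend with length and GC content can change it. The ratio in part restates the difference for which the family was chosen.

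The summed level of all 10 members overlapped between the groups, at 251 to 303 TPM at ZT20 and 254 to 360.0 TPM at ZT8. Dusp1 held 70.6% to 77.3% of it at ZT20 and 84.1% to 85.8% at ZT8. Dusp8 held 13.3%, 12.0%, 11.2% and 8.67% in ZT20 replicates 1 to 4. It held 1.58%, 2.32% and 2.35% in ZT8 replicates 1 to 3. The shares of Dusp8 and of Dusp1 did not overlap between the groups. The Dusp8 share restates the difference for which the family was chosen, and the Dusp1 share, taken of the same total, in part does too. Without Dusp1 and Dusp8 the sum of the other 8 members was 40.6 to 44.3 TPM at ZT20 and 34.6 to 45.5 TPM at ZT8, and overlapped.

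**Figure D3:**
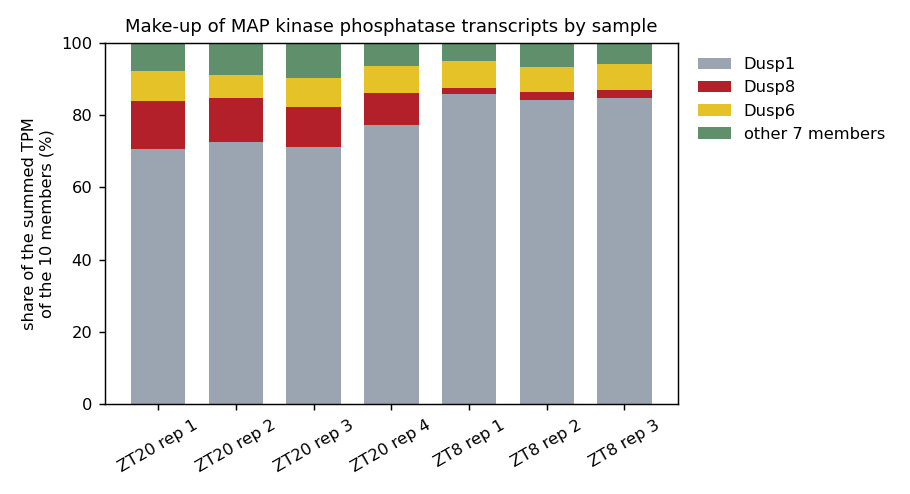
Share of the summed TPM of the 10 MAP kinase phosphatases held by Dusp1, Dusp8, Dusp6 and the other 7 members in each sample, in percent, with 1 bar per sample. The Dusp8 part is 8.67% to 13.3% in the ZT20 bars and 1.58% to 2.35% in the ZT8 bars.

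The kinases on which these enzymes act, and the scaffolds and kinases above them, were read from lists of pathway genes. In the JNK cascade 8 of 15 tested genes (of 18 listed) rose at ZT20 and 0 fell, or 53.3%, where 12.8% of all tested genes were called higher. The list had a median log2 difference of 0.74 against 0.23 over all tested genes. That median was 0.51 with median-ratio scaling, 0.21 with the length and GC correction and 0.19 with the correction and a replicate block, where the medians of all tested genes were 0.034, −0.0034 and −0.0093. The JNK scaffold gene Mapk8ip1 averaged 153 ± 38.5 TPM in ZT20 samples against 54.0 ± 19.8 TPM in ZT8 samples and differed by 1.51 in log2 (SE 0.30, limma adjusted p = 0.0145). Spag9, another JNK scaffold gene, stood at 27.5, 27.5, 30.1 and 29.9 TPM in ZT20 replicates 1 to 4 and at 11.9, 12.1 and 12.7 TPM in ZT8 replicates 1 to 3. Spag9, like Dusp8, was tight within both groups, and its log2 difference was 1.17 (SE 0.13, limma adjusted p = 0.0031). With the length and GC correction the difference of Spag9 was 0.58 (limma adjusted p = 0.0242). Map3k10, an upstream kinase, differed by 1.09 (SE 0.29, limma adjusted p = 0.0355), but it passed in 2 of the 7 fits that left out 1 sample and not with the length and GC correction (0.65, limma adjusted p = 0.119). The genes of the JNKs themselves, named outside the naming rule after their values were seen, summed to 302 to 368 TPM at ZT20 and 191 to 230.0 TPM at ZT8 over Mapk8, Mapk9 and Mapk10. Mapk10 and Mapk9 differed by 0.82 and 0.74 (limma adjusted p = 0.0182 and 0.034), while Mapk8 averaged 28.2 against 27.6 TPM, a difference of 0.032 (limma adjusted p = 0.887). The count of 8 became 4 with median-ratio scaling. With the length and GC correction, where 8.67% of all genes were called, it became 3, of which 2 were among the 8 and the other was Mapk8, lower at ZT20 (−0.46, limma adjusted p = 0.0451). It was 4, 1, 1 and 3 without ZT20 replicate 1, ZT20 replicate 3, ZT20 replicate 4 and ZT8 replicate 3. With the marker score as covariate, and without both ZT20 replicates 3 and 4, the JNK count was 0, as it was over all genes. Neuron markers had a called share of 26.7%, all higher at ZT20, and the part of cell make-up in the JNK genes was not tested.

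In the ERK cascade 3 of 11 tested genes (of 12 listed) rose at ZT20 and 0 fell, which is 27.3%, where 12.8% of all tested genes were called higher. The list's median log2 difference was 0.42, and that of all tested genes 0.23. Mapk3, which encodes ERK1, stood at 363, 341, 382 and 343 TPM in ZT20 replicates 1 to 4 and at 242, 225 and 263 TPM in ZT8 replicates 1 to 3, with no overlap. Its log2 difference was 0.56 (SE 0.10, limma adjusted p = 0.0126). Braf, which encodes a kinase at the head of the cascade, differed by 1.35 (SE 0.29, limma adjusted p = 0.0183), but by 0.74 with the length and GC correction (limma adjusted p = 0.12), and it passed in 4 of the 7 fits that left out 1 sample. After the length and GC correction 1 of the 11 passed, and without ZT20 replicate 3, ZT20 replicate 4 or ZT8 replicate 3 the count was 0, 1 and 1. It was 0 with the marker score as covariate and 0 without both ZT20 replicates 3 and 4, as over all genes. The called share of 27.3% is near the 26.7% of the neuron markers, and the part of cell make-up was not tested.

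The p38 cascade list holds the p38 kinases Mapk11 to Mapk14, with kinases above and below them. It gave 0 of 9 tested genes past the adjusted threshold by limma, which 16.4% of all tested genes passed. At an unadjusted limma p-value under 0.05 it gave 1, where 5122 of all 14800 tested genes lay. That 1 was the downstream kinase gene Mapkapk2, which is named after its value was seen (log2 difference 0.75, limma adjusted p = 0.114). Mapk11 averaged 71.9 ± 13.2 TPM in ZT20 samples against 52.0 ± 19.2 TPM in ZT8 samples. For Mapk12 the averages were 50.9 ± 3.51 against 49.7 ± 18.05 TPM, and for Mapk14 14.5 ± 2.56 against 15.2 ± 9.003 TPM. The ranges of all 3 kinases overlapped. The log2 differences of Mapk12 and Mapk14 were 0.10 and 0.096, the latter positive although its mean TPM was lower at ZT20, and median-ratio scaling turned them to −0.13 and −0.12. The ERK5 list likewise gave 0 of 4 by limma, with 1 at an unadjusted p-value under 0.05. Both lists are short, and their difference from the JNK list was not tested.

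Other genes that ERK signalling induces, some of them as its own brakes, were set beside Dusp6. Of 12 tested feedback and target genes (of 16 listed), 3 rose at ZT20 and 0 fell, or 25.0%, where 12.8% of all tested genes were called higher. The median log2 difference was 0.41, against 0.23 over all tested genes. Spry2, which encodes a Sprouty inhibitor of receptor tyrosine kinase signalling, had 9.15, 16.1, 9.87 and 10.7 TPM in ZT20 replicates 1 to 4 and 1.88, 1.79 and 1.45 TPM in ZT8 replicates 1 to 3. Its mean was 6.72-fold higher at ZT20, with a log2 difference of 2.18 (SE 0.24, limma adjusted p = 0.00261). That difference was close in size to the one of Dusp8 and was 2.14 after the length and GC correction. Spry4, a second Sprouty gene, differed by 1.32 (SE 0.24, limma adjusted p = 0.0108). Spred1, which encodes an inhibitor of Ras, was at 7.57, 7.81, 8.64 and 7.95 TPM at ZT20 and at 3.31, 3.56 and 3.42 TPM at ZT8, a log2 difference of 1.02 (SE 0.18, limma adjusted p = 0.0102). After the length and GC correction Spry4 differed by 0.88 and Spred1 by 0.51, and neither passed (limma adjusted p = 0.0754 and 0.0883), and without ZT20 replicate 3 the count of 3 was 1. That count was 0 with the marker score as covariate and 0 without both ZT20 replicates 3 and 4, as over all genes. The part of cell make-up in these genes was not tested. Group ranges were apart for Spry2, Spry4 and Spred1, which are named because they passed, and the other 9 tested genes of the list overlapped, as Dusp6 did.

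Immediate early genes were listed because Dusp1 belongs to them and because tissue dissociation is known to induce them. Of 22 tested genes (of 26 listed), 1 rose and 2 fell at ZT20, in all 13.6%, near the 16.4% of all tested genes. The median log2 difference was 0.095, which turned to −0.098 with median-ratio scaling and −0.18 with the length and GC correction. Junb averaged 300.4 ± 52.7 TPM in ZT20 samples against 475 ± 107 TPM in ZT8 samples and differed by −0.65 in log2 (SE 0.19, limma adjusted p = 0.0485). Ier2 averaged 94.4 ± 14.8 against 138 ± 10.97 TPM and differed by −0.55 (SE 0.14, limma adjusted p = 0.0343). Both were lower at ZT20, whereas the growth regulator Myc differed by 0.77 (SE 0.19, limma adjusted p = 0.0275). With median-ratio scaling 0 genes of the list rose and 3 fell, of which 2 were among the 3 calls above and the other was Fos (−0.79, limma adjusted p = 0.0201). Leaving out single samples often ended these calls: the count of 3 was 0, 1, 0, 1 and 1 without ZT20 replicate 1, ZT20 replicate 2, ZT20 replicate 3, ZT8 replicate 1 and ZT8 replicate 3.

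Other phosphatases were compared with the family. In a list of atypical dual-specificity phosphatases, which lack the MAP kinase binding domain of the 10 members, to which the slingshot phosphatases Ssh1, Ssh2 and Ssh3 of a separate class were added, 2 of 16 tested genes (of 20 listed) rose and 0 fell, or 12.5%, near the 12.8% of all tested genes called higher, and the median log2 difference of 0.20 was near that of all tested genes, 0.23. Dusp3, an abundant relative that can act on ERK and JNK, stood at 260, 412, 215 and 206 TPM in ZT20 replicates 1 to 4 and at 85.2, 149 and 84.8 TPM in ZT8 replicates 1 to 3. The replicate 2 samples were the highest of both groups, the groups did not overlap, and the log2 difference was 1.35 (SE 0.28, limma adjusted p = 0.0178). Ssh2, which encodes a slingshot phosphatase of the actin regulator cofilin, differed by 1.40 (SE 0.22, limma adjusted p = 0.00815). Without ZT8 replicate 3 the call of Dusp3 was lost and the count was 1. After the length and GC correction neither passed (Dusp3, 0.94 with limma adjusted p = 0.118; Ssh2, 0.75 with limma adjusted p = 0.0521), and Styx, not among the 2, was lower at ZT20 (−0.91, limma adjusted p = 0.0308). Among 8 tyrosine or serine/threonine phosphatases that act on MAP kinases 1 rose, or 12.5%, near the 12.8% of all tested genes called higher. It was Ppp2cb, a catalytic subunit of protein phosphatase 2A, averaging 15.6 ± 1.43 against 5.06 ± 1.66 TPM (log2 difference 1.49, SE 0.21, limma adjusted p = 0.00595). With the length and GC correction the median of that list turned from 0.43 to −0.10. Without ZT8 replicate 2, when 20.6% of all tested genes were called, the count in that list was 2. Of the pathway genes named here, Spag9, Spry2, Ssh2 and Ppp2cb passed in all 7 fits that left out 1 sample.

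**Figure D4:**
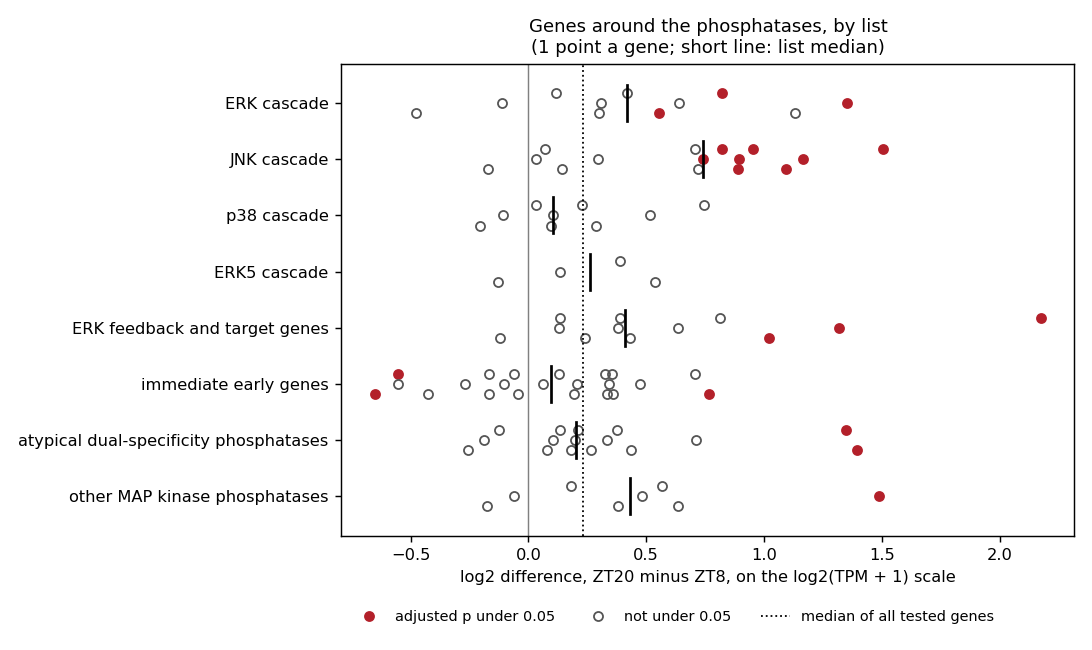
Log2 difference of ZT20 minus ZT8 for each tested gene of the 8 lists around the phosphatases, with 1 point per gene, filled where the limma adjusted p-value was under 0.05. A short line marks each list's median and the dotted line the median of all tested genes, 0.23. The JNK cascade has 8 filled points of 15 and the p38 cascade 0 of 9.

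The genes whose values followed Dusp8 most closely over the 7 samples were found among all tested genes by Pearson's r of log2(TPM + 1). They were Rgs7bp (r = 0.998), C2cd5 (0.997), Psme4 (0.996), Sltm (0.996) and Bod1l (0.995). Rgs7bp, for one, was at 121 to 142 TPM at ZT20 and at 58.6 to 62.0 TPM at ZT8, a log2 difference of 1.12. Such r values include the step between the groups, for which Dusp8 was chosen. After each group's mean was subtracted, the closest genes were others, Rpl27a (r = 0.977), Atp5g1 (0.975), Mtln (0.974), Etfb (0.969) and Tamm41 (0.947). Etfb had a log2 difference of −0.38 and Atp5g1 of 0.17, unlike that of Dusp8, and 7 samples from the same 2 sets of libraries carry little information on such likeness.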

How the data were processed

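The authors deposited one table of transcript abundance (TPM) whose 7 value columns name the group and replicate, and no column was left unused. The submitters' processing notes name FastQC 0.11.9, Trim Galore 0.6.6, Salmon 1.6.0 and DESeq2 1.34.0 and the build GRCm39, without roles. The annotation and strand setting are not given in the sources used here. TPM keeps no depth, so counting error is unknown. Values were tested as log2(TPM + 1) for genes averaging 1 TPM or more, with limma 3.58.1 in R 4.3.3 (lmFit, eBayes with trend, two-sided, Benjamini-Hochberg adjustment, threshold 0.05) over all 7 samples. The fit was tested on simulated data. Labels do not say that samples are separate animals, so p-values measure the spread between samples. The members and lists were chosen with earlier results of these data known. Named pathway genes are the 3 largest called differences of a list or, failing 3 calls, preset kinases and target genes. Some items that this rule or a marker list would name are not reported here. Alternatives were a pseudocount of 0.1, filters at 0 and 5 TPM, quantile normalization, median-ratio scaling, taking out each sample's loess trend (span 0.3) with length and GC content from GENCODE M21 (known for 14745 genes), replicate block, array weights, a marker score as covariate, and samples left out. Each motif was searched in RefSeq promoters of GRCm38.p6, another build than the one in the notes.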

Additional observations from a re-analysis of the deposited data

Results flagged for a closer look

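Among 28 genes whose ZT20 values were examined, 2 had 1 sample so far from the other 3 that its gap to the nearest value exceeded the 95% critical share of the group's range (Dixon), and chance gives about 1.4. In both cases that sample was ZT20 replicate 2. Braf had 33.6 TPM there, the other 3 lying between 19.7 and 21.03 TPM, and the gap took 0.904 of the range. Mapk8ip1 had 94.98 TPM there, below the 169 to 174 TPM of the rest, and the gap took 0.938 of the range. Leaving that sample out changed the log2 difference of Braf from 1.35 to 1.18 and that of Mapk8ip1 from 1.51 to 1.72. None of the 10 phosphatases had such a value at ZT20.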

How the results depend on the processing

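Over 18 alternatives the Dusp8 difference lay between 1.5997 and 2.29, and Dusp4, Dusp7, Dusp10 and Dusp16 stayed positive in the 17 that held them. The calls depended more on the setting. Over all genes, limma called 1178 (978 higher and 200 lower at ZT20) with no filter, 1278 (543 and 735) with the length and GC correction and 3899 (2982 and 917) with array weights. The split was 1128 and 1160 under median-ratio scaling and 1023 and 814 under quantile normalization. With the marker score as covariate, and without both libraries lacking Y-linked RNA (ZT20 replicates 3 and 4), it called 0 genes over the table, the members and each list, and 1514 and 2425 genes had an unadjusted p-value under 0.05. Leaving out 1 sample gave 624 to 3055 calls, 543 to 2374 higher and 81 to 681 lower.

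Correlations of same-numbered samples were −0.0337, 0.154 and 0.132, and those of differently numbered samples ran from −0.19 to 0.133. So few values cannot decide whether same-numbered samples are paired. The replicate block gave 1099 calls (826 and 273), and with the length and GC correction 474 (216 and 258). With the block alone 4 JNK genes passed, and with both 0 ERK, 1 JNK, 1 feedback and 3 immediate early genes, 2 of the atypical list (1 higher, 1 lower) and 0 of the other MAP kinase phosphatases did.

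As a description, 2 members passed with median-ratio scaling, Dusp8 and Dusp1 (lower at ZT20), where 15.5% of all tested genes did. With array weights 2 passed, Dusp8 and Dusp16, where 3899 of 14800 genes did. With 1 sample left out 1 to 2 passed, the second being Dusp16 without ZT8 replicate 2, where 20.6% of genes did. Calls over all tested genes were 1178 of 31897 with no filter and 2288 of 14800 with median-ratio scaling. They were 1837 with quantile normalization and 1278 of 14745 with the length and GC correction. ERK genes gave 2 with no filter, median-ratio scaling or quantile normalization, 1 with the length and GC correction, 5 with array weights and 0 to 4 with 1 sample left out. JNK genes gave 3 with no filter or the length and GC correction, 4 with median-ratio scaling or quantile normalization and 1 to 7 with 1 sample left out. Feedback genes gave 1 with the length and GC correction, 5 with array weights and 1 to 4 with 1 sample left out. Immediate early genes gave 0 with no filter, 1 with quantile normalization and 0 to 2 with 1 sample left out. Atypical phosphatases gave 1 with no filter or median-ratio scaling, 1 with the length and GC correction (Styx, lower, and neither of the 2 calls) and 1 to 2 with 1 sample left out, and the other MAP kinase phosphatases 2 with array weights and 1 to 2. These counts can hold genes other than those called in the report. The cause of these changes was not tested.

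Signs of p38 kinases turned. Mapk11 was −0.41 with the covariate. Mapk12 was −0.13 with median-ratio scaling, −0.027 with quantile normalization, −0.12 with array weights, −0.68 with the covariate and from −0.22 (without ZT8 replicate 2) to 0.33 (without ZT8 replicate 3) with 1 sample left out. Mapk14 was −0.12 with median-ratio scaling, −0.20 with quantile normalization, −0.20 with the length and GC correction, −0.096 with that and the block, −0.0073 without ZT20 replicate 2 and from −0.38 (without ZT8 replicate 1) to 0.51 (without ZT8 replicate 2) with 1 sample left out. Of the other alternatives for named pathway genes, 211 kept direction and side of the threshold and 101 kept direction but no longer passed. TPM keeps no depth, so the counting error of low members such as Dusp2 and Dusp9 is unknown.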
